A study of Bombyx mori with 2 samples.

Results

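Of 25992 loci assembled from the wing bud transcripts of the silkworm *Bombyx mori*, 156 were spliced loci that lay whole inside an intron of another spliced locus. Transcripts of both assemblies formed a locus wherever exons of the same strand overlapped by 1 base or more, and a transcript without a strand joined either strand. A locus counted as nested when it had a transcript of several exons and its span from first to last base fitted into an intron of a multi-exon transcript of another locus, here called its host. The 156 were 1.32% of the 11817 spliced loci (Wilson 95% interval 1.13 to 1.54%, counting error only). By strand, 67 were transcribed in the direction of the host and 88 against it, and at 1 locus, on nscaf3097 from 2323137 to 2324735, transcripts of both strands were joined. The rule used exon positions and strands alone, not levels.

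RNA came from hindwing and forewing buds of silkworms of the Daizo race at the fourth instar, and was meant for comparing gene expression between the wing primordia of adjacent thoracic segments. The hindwing buds were taken from the third thoracic segment and the forewing buds from the second, from untreated larvae kept on mulberry leaves. Each library held 80 pooled buds, and each group had 1 library, so no difference below has a replicate check, and no p-value is given. Whether a locus with fewer fragments was transcribed less or in fewer cells of the bud cannot be told apart in such pools.

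A nested gene is a gene that sits entirely within an intron of another gene. The host's primary transcript carries the nested gene as part of a stretch that is spliced out and degraded, so the nested gene needs a start of its own to be expressed as an mRNA. On the opposite strand the nested and host units are transcribed towards each other through the same DNA, whereas on the same strand the host polymerase also passes through the nested gene in its sense direction. In *Drosophila*, a pupal cuticle protein gene within an intron of Gart, a gene of purine synthesis, is the textbook case on the opposite strand.

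Names of genes could not be given, because the deposited transcripts carry assembly identifiers only. Loci are therefore called by scaffold and by first and last base as deposited, and no source used here gives the genome build. For the same reason the wing bud identity of the libraries was not checked against marker genes. Transcripts of the same strand inside an intron cannot be told apart from forms of the host whose connecting exon was not assembled, since no annotation was used. The library kit did not mark strand: the strand of a spliced transcript rests on the sequence of its splice sites.

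The hindwing library held about 43528000 fragments and the forewing library about 37193000, as recovered from the whole-number steps of the deposited bounds. The hindwing assembly had 32946 transcripts with a median of 134 fragments each, and the forewing assembly had 27876 with a median of 179. The level of a locus is given as FPM, its fragments per 1000000 fragments of the library. Between loci of different length it is given as the level per kb. That is the FPM of each transcript per kilobase of its exons, summed over the transcripts of the locus. The level per kb depends on the forms assembled. On nscaf2176, the nested locus from 3012234 had 52.1 FPM in the hindwing and 48.1 FPM in the forewing, but 14.4 and 6.31 per kb. The intervals printed beside a level are the sums of the authors' 95% bounds over the transcripts of a locus in that library. Such a sum is not itself a 95% interval, its width depends on the number of forms assembled, and it holds no difference between buds or between preparations. A locus without any transcript in a library was set to 0 there, which says only that none was assembled.

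Nested loci had few exons and short spans. A locus had to fit into an intron to be counted, so the rule itself favours short spans, and loci of like span were not compared. The longest form of a nested locus had a median of 3 exons, against 5 in the 11661 other spliced loci, and 71 of the 156 (45.5%) had exactly 2 exons, against 20.6% of the others. Their median span was 2818 bases, against 6848 bases. Another 33 nested loci had 3 exons, 23 had 4 and 29 had 5 or more, and of these last 9 were on the host's strand and 20 on the opposite strand. The nested locus with the most exons lay on nscaf2846 from 80729 to 91175, on the strand of its host, with 14 exons in the hindwing assembly and 13 in the forewing assembly, and its level was 5.79 FPM (4.52 to 7.05) in the hindwing and 4.26 FPM (3.04 to 5.49) in the forewing. Its host had 7 exons. A nested locus of 11 exons, on nscaf3031 from 1765915 to 1774054, lay in an intron of a host of 2 exons that read in the same direction.

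Spliced structure was recovered in both wings for most of them. A multi-exon transcript was assembled in both libraries at 113 of the 156 loci (72.4%), in the hindwing only at 31 and in the forewing only at 12, against 88.4% in both among other spliced loci. All 113 had at least 1 intron with identical ends in both assemblies, and at 83 loci all introns were identical. For 121 loci a host intron around them was itself assembled with the same ends in both libraries. At 92 loci both conditions held, the nested intron and the surrounding intron each being found in hindwing and forewing alike. Exon bases shared with another locus, which lie on the opposite strand, occurred at 8 of the 156, and at 3 of these the other locus was a further form of the host.

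The 156 loci lay in 128 host introns of 126 host loci. Host introns were long: seen from the nested loci, their median length was 33821 bases (2076 to 182795), with 23558 for same-strand and 37336 for opposite-strand loci, while the median of all 62587 assembled introns was 749 bases. None of the 51509 introns under 2 kb held a nested spliced locus. The share was 0.360% (29 of 8045) for introns of 2 to 10 kb, 2.48% (63 of 2545) from 10 to 50 kb, 6.14% (21 of 342) from 50 to 100 kb and 10.3% (15 of 146) at 100 kb or more. A longer intron leaves more room for any locus, and this share was not compared with random placement.

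**Figure D1:**
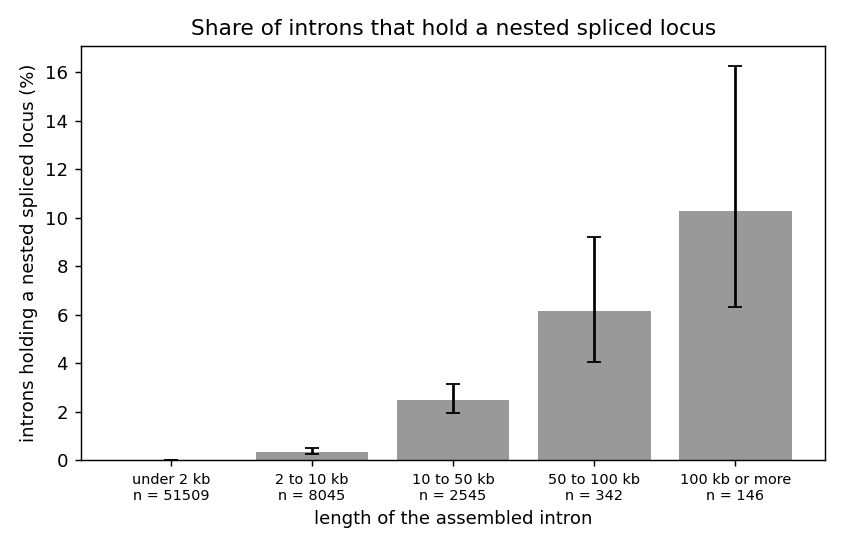
Share of assembled introns that held at least 1 nested spliced locus (%), by intron length, with Wilson 95% intervals as bars (counting error only) and the number of introns below each class. The share went from 0 of 51509 introns under 2 kb to 10.3% of the 146 introns of 100 kb or more.

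Within the intron, the nested span covered a median of 13.6% of the length, and its nearer end was a median of 4646.5 bases from a host exon (20 to 71370). An end within 1000 bases of a host exon was seen at 21 of 67 same-strand loci (31.3%) and at 13 of 88 opposite-strand loci (14.8%), and same-strand loci also lay in shorter introns. Within 100 bases there were 3, picked out after their values were seen. They lay on nscaf3026 from 6102941 to 6104955 (20 bases from a host exon), on nscaf2847 from 937127 to 939270 (41 bases) and on nscaf3027 from 777154 to 785827 (90 bases). The upstream host exon, in the host's direction of transcription, was the nearer one for 95 of 156 loci (60.9%). For 88 loci (56.4%) the surrounding intron was the first intron of some host form. First introns were also common among long introns in general: of introns of at least 10 kb, 51 of the 99 with a nested locus (51.5%) were first introns, against 1763 of all 3033 (58.1%).

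The longest host intron, 182795 bases on nscaf1108, held a nested locus from 1501804 to 1625619, whose own intron of 76130 bases in turn held a locus from 1563722 to 1599957. All 3 units read in the same direction. It was the only nested locus whose host was itself nested. Levels were 5.34 FPM (3.61 to 7.07) in the hindwing and 5.57 FPM (3.48 to 7.65) in the forewing for the innermost locus, 2.11 and 2.94 FPM for the one around it, and 21.4 and 19.6 FPM for the outer host. In the forewing assembly the middle locus was made of single-exon transcripts, and neither of the surrounding introns was found there. The longest nested span, 151490 bases on nscaf3040 from 977516 to 1129005, filled 97.3% of an intron of 155771 bases on the same strand, and ended 223 bases from the upstream host exon. The form with the most fragments had 5 exons in each wing, but the full span rested on the forewing form alone. Its outermost exon lay 155472 to 155548 bases into the intron, while that of the hindwing form lay at 50870 to 50982, and 3 of the 5 introns assembled were identical. The locus had 2.57 FPM (1.56 to 3.58) in the hindwing and 2.93 FPM (2.20 to 3.66) in the forewing, against 89.1 and 84.3 FPM for its host, and with the deposited FPKM its log2 ratio went from -0.14 to 2.09.

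Most host introns, 110 of 128, held a single nested locus, 14 held 2, 2 held 3, and the remaining pair held 4 and 8. Those with 3 were on nscaf2176 from 2685529 to 2747188 and on nscaf2674 from 4861052 to 5006488, and their 6 loci all read on the plus strand. The 3 on nscaf2674 lay 658 and 112 bases apart, with 0.425, 0.702 and 0.840 FPM in the hindwing. Those at 4995527 and 4997487 had no forewing transcript. Such neighbours cannot be told apart from pieces of a single nested unit that was not joined in the assembly. The intron with 8 was 139366 bases long, on nscaf2176 from 2946899 to 3086264, and belonged to a host of 17 exons on the minus strand (2936734 to 3086434). The host had 160 FPM in the hindwing and 179 FPM in the forewing, and the forms that contained this intron made up 11.8% and 16.0% of the host level. Of its 8 nested loci 6 were on the plus strand. An 11-exon locus at 2964225 to 2976146 had 49.9 FPM in the hindwing and 48.7 FPM in the forewing. The locus at 3012234 to 3034829 had 52.1 and 48.1 FPM, with 10 exons in the forewing assembly but at most 8 in the hindwing. Its hindwing form with the most fragments had 2 exons. A 2-exon locus at 3035979 to 3037206 had 52.1 FPM in the hindwing and 49.6 FPM in the forewing. The intervals of all 3 overlapped between the wings.

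The 4-exon locus of the same intron at 3043081 to 3046146 had the most fragments of the 8, with 133 FPM (129 to 138) in the hindwing and 156 FPM (150 to 161) in the forewing. It stood head to head, 223 bases apart, with a minus-strand locus at 3038101 to 3042857 that had 20.0 FPM in the hindwing and 18.2 FPM in the forewing. The 4-exon locus was higher in the forewing with intervals apart, while the intervals of its minus-strand neighbour overlapped. The other minus-strand locus, at 2986826 to 2988771, had 2.03 FPM (1.36 to 2.71) in the hindwing and 1.30 FPM (0.780 to 1.83) in the forewing. A 2-exon locus at 3051378 to 3053466 had 3.78 FPM (2.64 to 4.92) in the hindwing and 1.04 FPM (0.618 to 1.45) in the forewing, a log2 ratio of 1.23, and no other of the 8 reached 2-fold in FPM. These calls turned with the measure: with the deposited FPKM this ratio was 0.97, while those of the loci at 3012234 and 3056108 were 1.10 and 2.93. With a pseudocount of 5 the ratio at 3051378 was 0.54. The last, at 3056108 to 3056656, had 0.724 FPM from about 31.5 fragments in the hindwing and no forewing transcript. Within this single intron, levels per kb in the hindwing ran from 2.80 at the locus with the lowest level to 73.8 at the one with the highest.

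**Figure D2:**
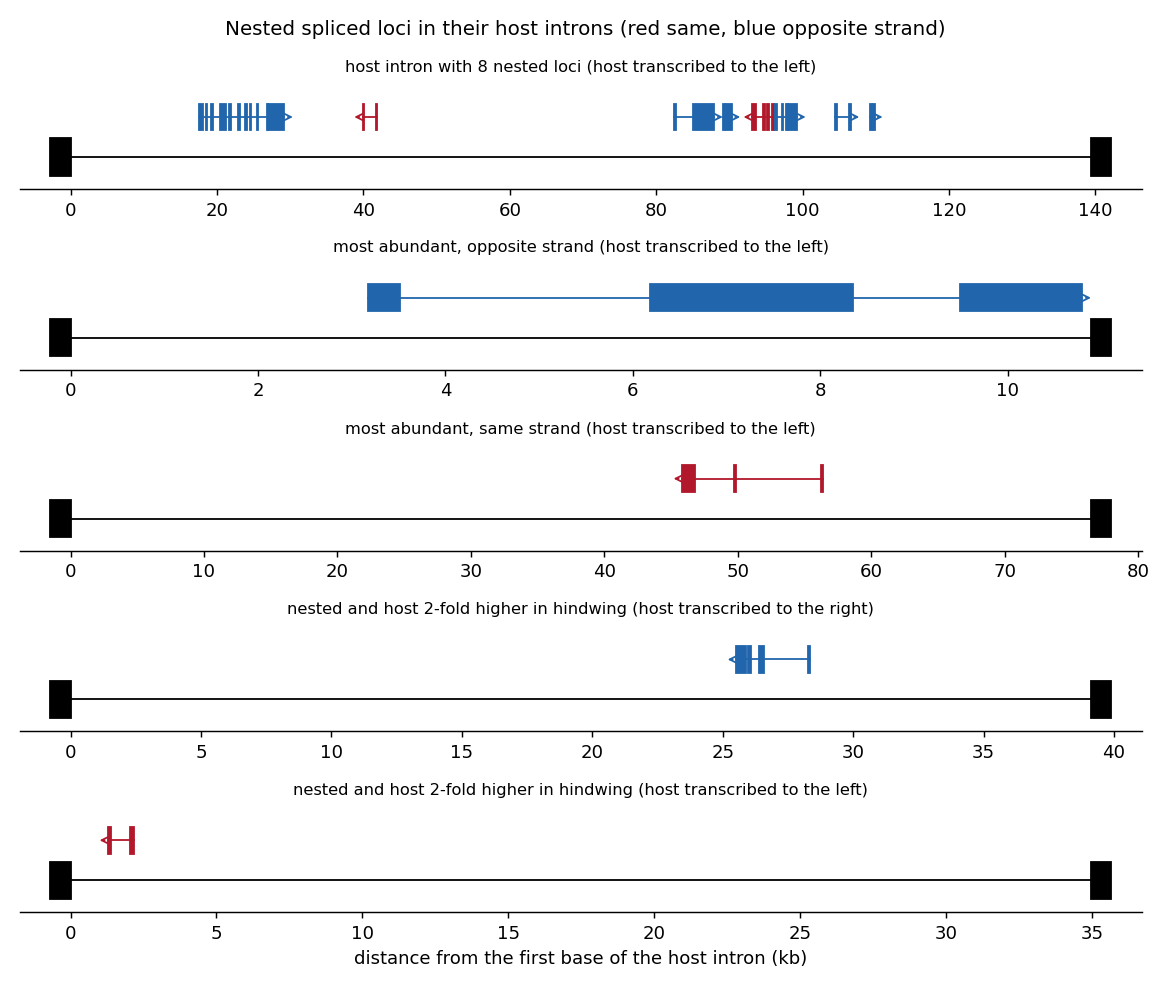
Nested spliced loci in 5 host introns, with distance from the first base of the host intron in kb on each horizontal axis. Boxes in red (same strand as the host) and blue (opposite strand) are the exons of the hindwing form with the most fragments at each locus, to scale, with arrows for the direction of transcription. Black boxes mark the host exons at both ends of the intron at a fixed width, not to scale. The top row shows the 8 loci in the intron of 139366 bases, and the other rows show loci described by their coordinates in the text.

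The intron with 4 nested loci lay on nscaf2980 from 192684 to 250765, 58082 bases in a minus-strand host of 8 exons with 15.6 FPM in the hindwing and 14.7 FPM in the forewing. These 4 loci were picked after their values were seen. Plus-strand loci at 216518 to 220716 and 223348 to 239696 had 45.1 and 125 FPM in the hindwing, against 38.3 and 88.8 FPM in the forewing, and both were higher in the hindwing with intervals apart. Minus-strand loci at 205953 to 212729 and 238239 to 242396 had 19.8 and 44.3 FPM in the hindwing, against 17.5 and 49.9 FPM in the forewing, with overlapping intervals. The loci at 223348 and 238239 overlapped on opposite strands and shared exon bases, so that fragments in the shared stretch could not be told apart. Across all introns with several nested loci there were 28 neighbouring pairs, of which 18 read in the same direction, 4 stood head to head, 4 tail to tail and 2 had overlapping spans. Since no annotation was used, neighbours in the same direction may be separate loci or unjoined pieces of a single locus, which cannot be told apart here. Both strand classes were present in 6 of the 18 introns.

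Nested loci had lower levels than other spliced loci. Their median level per kb over both libraries was 5.51, against 11.1 for other spliced loci, with 5.63 for same-strand and 5.31 for opposite-strand loci. In fragments, the median was 4.73 FPM, against 21.6 FPM, and here the strand classes differed, with 3.90 FPM for same-strand and 9.47 FPM for opposite-strand loci. Together the nested loci took up 0.459% of all fragments in the hindwing and 0.419% in the forewing, and a single locus made up 22.9% and 18.3% of those. Against their hosts, levels per kb were compared at the 124 nested loci with transcripts of both loci in both libraries. The nested locus was below its host in both wings at 76 loci (61.3%), above it in both at 32 (25.8%), and above it in 1 wing only at 16 (12.9%). The same-strand counts were 31, 11 and 8 of 50, and the opposite-strand counts were 45, 20 and 8 of 73. All these counts depend on the forms assembled for each locus in each library, through the level per kb. Across pairs, the log2 levels per kb of nested locus and host had a Pearson correlation of 0.51 in the hindwing (n = 148) and 0.53 in the forewing (n = 131). This is a description across loci, of which some share a host and all share a library.

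**Figure D3:**
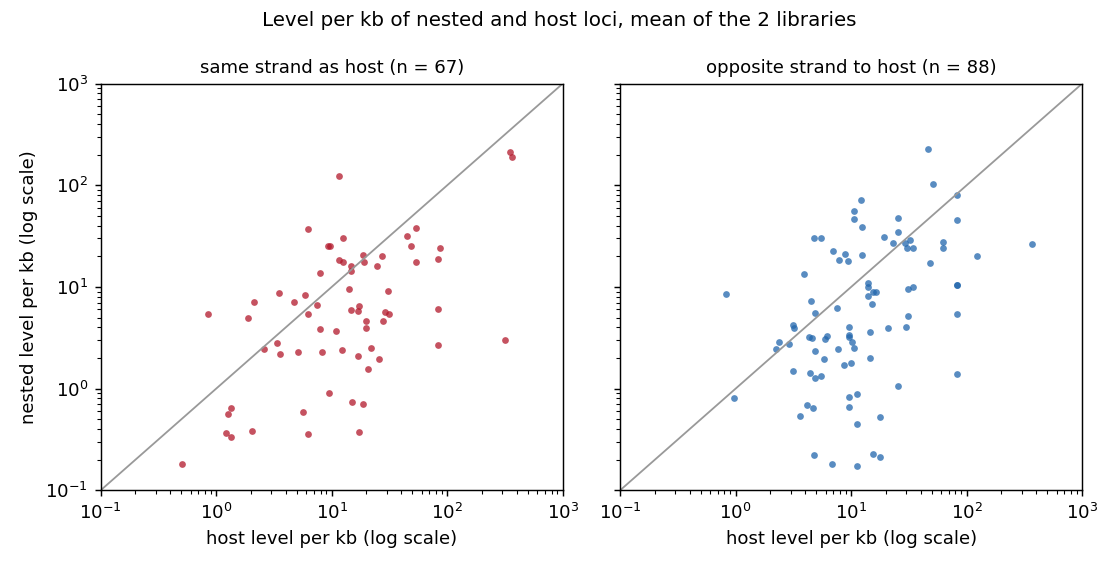
Level per kb of each nested locus against that of its host, as the mean of the hindwing and forewing library, both axes on a log scale, for 67 same-strand (red) and 88 opposite-strand (blue) loci. The line marks equal levels. Most points lie below it, and those above it occur in both strand classes.

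The same-strand locus with the most fragments, on nscaf1898 from 12035737 to 12046281, had 3 exons and 278 FPM (272 to 285) in the hindwing and 254 FPM (247 to 261) in the forewing. Its host of 3 exons was also abundant, with 456 and 376 FPM, and the nested locus lay in an intron of 76439 bases that was found in both wings, at least 20067 bases from a host exon. Nested locus and host were both higher in the hindwing with intervals apart, at log2 ratios of 0.13 and 0.28. A 2-exon locus on nscaf2865 from 1619262 to 1623915 had 78.5 FPM (73.5 to 83.6) in the hindwing and 69.5 FPM (65.1 to 74.0) in the forewing. Its host had 41.5 and 41.1 FPM, and per kb the nested locus was above it, with 24.0 and 26.0 against 9.87 and 9.64. A 5-exon locus on nscaf2511 from 1977062 to 1984445 had 63.2 FPM (59.0 to 67.4) in the hindwing and 67.2 FPM (62.6 to 71.8) in the forewing. Neither of these 2 loci differed beyond its intervals, while the nscaf2511 host was higher in the forewing, with 16.2 FPM in the hindwing and 23.7 FPM in the forewing.

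Next in this order came a short locus. On nscaf2931 from 912916 to 913682, 767 bases with 2 exons, it had 67.6 FPM (62.8 to 72.4) in the hindwing and 37.1 FPM (34.3 to 39.8) in the forewing. The log2 ratio was 0.85, while its host stayed close to equal, with 401 FPM in the hindwing and 417 FPM in the forewing. The intron around it, of 48050 bases, was present in the hindwing assembly alone. With the FPKM values as deposited the ratio of this locus changed sign, to -0.40.

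Opposite-strand loci included the nested locus with the most fragments of all, on nscaf3027 from 777154 to 785827, with 1049 FPM (1027 to 1070) in the hindwing and 769 FPM (756 to 781) in the forewing. It lay 90 bases from the upstream exon of a 12-exon host that read the other way. The host had 43.0 FPM (40.4 to 45.5) in the hindwing and 147 FPM (141 to 153) in the forewing, a log2 ratio of -1.75 against 0.45 for the nested locus. The surrounding intron was assembled in the hindwing only, and the nested exons shared bases with another form of the host. Without strand in the reads, fragments of such stretches cannot be told apart, and their part in the opposite ratios was not tested.

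A 6-exon locus on nscaf2951 from 463331 to 469732 had 200 FPM (189 to 210) in the hindwing and 180 FPM (170 to 191) in the forewing, in a host of 55.1 and 55.5 FPM. On nscaf2888, a 7-exon locus from 682360 to 689962 had 160 FPM (152 to 168) in the hindwing and 165 FPM (156 to 174) in the forewing. Its 11-exon host was higher in the hindwing, with 52.2 FPM against 29.6 FPM in the forewing, but the intron around the nested locus was in the forewing form alone. Per kb, both nested loci were above their hosts in both wings, with 53.2 and 42.8 for nscaf2951 against 27.1 and 23.7. The pair on nscaf2888 had 44.4 and 48.6 for the nested locus against 10.9 and 10.1 for the host.

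**Figure D4:**
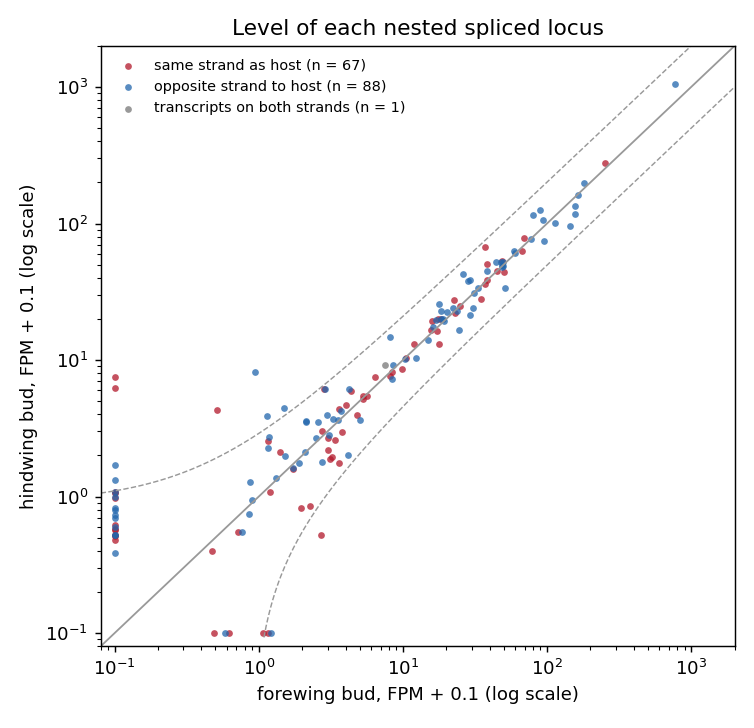
Level of each nested spliced locus in the forewing bud (horizontal) and the hindwing bud (vertical), in FPM with 0.1 added, both axes on a log scale, 1 point per locus. The solid line marks equal levels and the dashed curves a 2-fold difference after adding 1 FPM to each level. Points along the left and lower edges are loci with transcripts in a single library, and 11 loci of at least 1 FPM lie beyond the curves.

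Levels in the hindwing and the forewing were close at most nested loci. Ratios were taken as log2 of hindwing over forewing after adding 1 FPM to each, for the 128 loci that had at least 1 FPM in a library. Their median size was 0.22, against 0.18 for other spliced loci, and 73 of the 128 (57.0%) were higher in the hindwing, against 52.2% of the others. The locus with transcripts of both strands, on nscaf3097 from 2323137 to 2324735, had 9.03 FPM (7.19 to 10.9) in the hindwing and 7.43 FPM (6.03 to 8.84) in the forewing. The log2 levels of the 2 libraries had a Pearson correlation of 0.97 over the 127 nested loci with transcripts in both, and of 0.98 over 10955 other spliced loci. A 2-fold difference was seen at 11 nested loci (8.59%, Wilson 95% interval 4.87 to 14.7%), of which 8 were higher in the hindwing and 3 in the forewing. Over all 11033 spliced loci at this level 6.35% differed 2-fold, 3.28% towards the hindwing and 3.07% towards the forewing, and the interval of the nested share included this background. Only 5 of the 11 had transcripts in both libraries. Among the 110 nested loci that were spliced in both wings 5 (4.55%) differed 2-fold, against 3.58% of all such loci. The summed intervals were apart at 45 of 128 nested loci (35.2%), 27 towards the hindwing and 18 towards the forewing. Of all spliced loci 33.6% were apart, 16.7% and 16.9% by direction. Both shares count loci set to 0 in either wing, whose intervals are apart by construction. Among the nested loci these were 4 of the 27 and 2 of the 18.

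At a pair of loci the nested locus and its host were both 2-fold higher in the hindwing, and no pair moved 2-fold in opposite directions. The first was a 4-exon locus on nscaf2993 from 4599237 to 4602099, on the strand opposite to its host, with 8.03 FPM (6.98 to 9.07) in the hindwing and 0.847 FPM (0.430 to 1.26) in the forewing. Its host, from 4573558 to 4614703, had 14.3 FPM in the hindwing and 4.17 FPM in the forewing. The log2 ratios were 2.29 and 1.56, and the intron of 39108 bases was found in both wings. The forewing value rested on about 31.5 fragments, and there only 2 of the 4 exons were assembled. The second was a 2-exon locus of 898 bases on nscaf2330 from 1235590 to 1236487, on its host's strand, with 4.17 FPM (3.04 to 5.30) in the hindwing and 0.417 FPM (0.161 to 0.672) in the forewing, or about 181 and 15.5 fragments. Its 10-exon host, from 1227819 to 1314633, had 15.5 FPM in the hindwing and 5.06 FPM in the forewing. The ratios were 1.87 for the nested locus and 1.44 for the host, that of the nested locus falling to 0.76 with a pseudocount of 5, and the surrounding intron again occurred in both assemblies.

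The remaining 2-fold loci, beside the one in the intron with 8 nested loci, were named after their values were seen. On the hindwing side, 4 had no forewing transcript: nscaf2789 from 482628 to 484966 with 7.46 FPM from about 325 fragments, nscaf2888 from 7872934 to 7874446 with 6.16 FPM, nscaf2176 from 2697272 to 2714757 with 1.60 FPM and nscaf2964 from 3392441 to 3399706 with 1.22 FPM. Their hosts had log2 ratios between -0.09 and 0.22. A 7-exon locus on nscaf2847 from 5867564 to 5872958 had 4.38 FPM (3.19 to 5.56) in the hindwing and 1.41 FPM (0.746 to 2.07) in the forewing, and its host had 30.2 and 28.5 FPM. Its forms were unlike, with 7 exons in the hindwing but 2 in the forewing and 1 of 6 introns shared, and with the deposited FPKM its log2 ratio went from 1.16 to 0.18. The ratio at nscaf2964 also left the 2-fold range with the deposited FPKM, at 0.53. On the forewing side, nscaf1690 from 5839212 to 5839518 had 1.06 FPM and nscaf2823 from 2389171 to 2396410 had 1.12 FPM, both without a hindwing transcript. A locus of 454 bases on scaffold416 from 288147 to 288600 had 0.425 FPM in the hindwing and 2.60 FPM in the forewing. None of these 8 hosts differed 2-fold.

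Among better measured loci the differences were smaller. Loci were taken that were spliced in both wings with exon lengths within 1.2 times of each other and had at least 5 FPM in a library. Intervals were apart at 14 of 57 such nested loci (24.6%, Wilson 95% interval 15.2 to 37.1%), against 33.8% of the 5623 spliced loci of this kind, 17.1% towards the hindwing and 16.7% towards the forewing. Of the 14, 8 were higher in the hindwing and 6 in the forewing, with log2 ratios from -0.60 to 0.85 and none at 2-fold, where 1.92% of the 5623 had intervals apart and a 2-fold difference. Towards the hindwing, the nscaf2931 locus above led, with the ratio of 0.85 that changed sign to -0.40 with the deposited FPKM. A 2-exon locus on nscaf2789 from 162102 to 164276 followed, with 25.6 FPM (22.7 to 28.5) in the hindwing and 17.8 FPM (16.0 to 19.6) in the forewing, in a host with 27.8 and 36.9 FPM that went the other way. The nscaf3027 locus came next, and then a 3-exon locus on nscaf2204 from 4465449 to 4471120 with 37.8 FPM (35.4 to 40.2) in the hindwing and 28.4 FPM (26.0 to 30.8) in the forewing. This last locus lay in the middle of an intron of 150783 bases, 71370 bases from the nearer exon of a 26-exon host with 16.6 FPM in the hindwing and 16.7 FPM in the forewing.

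Towards the forewing, a 2-exon opposite-strand locus on nscaf2828 from 5345321 to 5355220 had the largest ratio in that direction, -0.60, with 95.4 FPM (91.5 to 99.4) in the hindwing and 145 FPM (139 to 150) in the forewing. Its 10-exon host had 168 FPM in the hindwing and 148 FPM in the forewing, so that nested locus and host differed in opposite directions, each with intervals apart. Forms that spanned the nested locus made up 30.8% of that host level in the hindwing and 31.3% in the forewing. Nested locus and host also differed in opposite directions, each with intervals apart, on nscaf1898 from 7775174 to 7778587. This 3-exon locus had 23.8 FPM (21.8 to 25.8) in the hindwing and 30.4 FPM (28.1 to 32.7) in the forewing, and its host had 167 and 124 FPM. At that host, transcripts of both strands had been joined through a transcript without a strand. On nscaf2176 from 2646004 to 2647850, a same-strand locus had 13.0 FPM (11.6 to 14.4) in the hindwing and 17.7 FPM (15.9 to 19.4) in the forewing, and its host, with 60.4 and 76.0 FPM, was higher in the forewing too. The 11-exon nscaf3031 locus had 27.8 FPM (25.6 to 30.1) in the hindwing and 34.6 FPM (32.0 to 37.2) in the forewing, inside a 2-exon host of 26.5 and 27.6 FPM.

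The direction of the hindwing to forewing ratio was then compared between each nested locus and its host. The host ratio took all forms of the host, also those that do not span the nested locus. Spanning forms made up a median of 69.6% of the host level in the hindwing (first quartile 34.5%). In the forewing the median was 85.7% (first quartile 30.6%). For 127 pairs from 103 hosts with at least 1 FPM in a library for each locus, 61 (48.0%, Wilson 95% interval 39.5 to 56.7%) shared direction, 34 of them higher in the hindwing and 27 in the forewing. By strand, 23 of 53 same-strand pairs (43.4%) and 37 of 73 opposite-strand pairs (50.7%) shared direction. Spliced loci that lay side by side without nesting, at most 50 kb apart, served as a comparison. Of 8178 such neighbours 4481 (54.8%, 53.7 to 55.9%) shared direction, a share within the interval of the nested pairs, so that a difference was not detectable with 127 pairs. Where the intervals of both loci were apart, 5 of 15 nested pairs (33.3%, 15.2 to 58.3%) shared direction, against 565 of 930 neighbours (60.8%, 57.6 to 63.8%). These pairs include loci set to 0 in a library, which are apart by construction. Examples are the host on nscaf2623 and the nested locus on nscaf2176 from 2697272. At nscaf2623, at nscaf3027 and at nscaf2888 from 674801 to 680268 the nested exons also shared bases with the host. Each of these pairs went in opposite directions, on nscaf2888 with log2 ratios of -0.16 for the nested locus and 0.80 for the host. Without strand in the reads, fragments of the shared stretches cannot be told apart, and their part in this share was not tested. Where both loci had like lengths in the 2 assemblies, it was 13 of 38 (34.2%, 21.2 to 50.1%) against 53.9% of neighbours (52.1 to 55.7%). In both subsets the share of neighbours lay above the interval of the nested pairs, unlike in the full set. Pairs that share a host are not independent, and these subsets were not tested against each other. Among the 124 hosts of at least 1 FPM, 11 (8.87%) differed 2-fold, against 6.35% of all spliced loci, 7 towards the hindwing and 4 towards the forewing, and 4 of the 11 had a transcript in a single library. The log2 ratios of nested locus and host had a Pearson correlation of 0.03 and a Spearman correlation of -0.03 over the 127 pairs, against 0.07 and 0.13 for neighbours. The Pearson value depended on the pairs taken. It was 0.18 over the 118 pairs with transcripts of both loci in both libraries, and -0.24 over the 38 of like length, against 0.18 for neighbours of like length. The 127 pairs include hosts set to 0 in a library. All these ratios share the same pair of libraries.

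**Figure D5:**
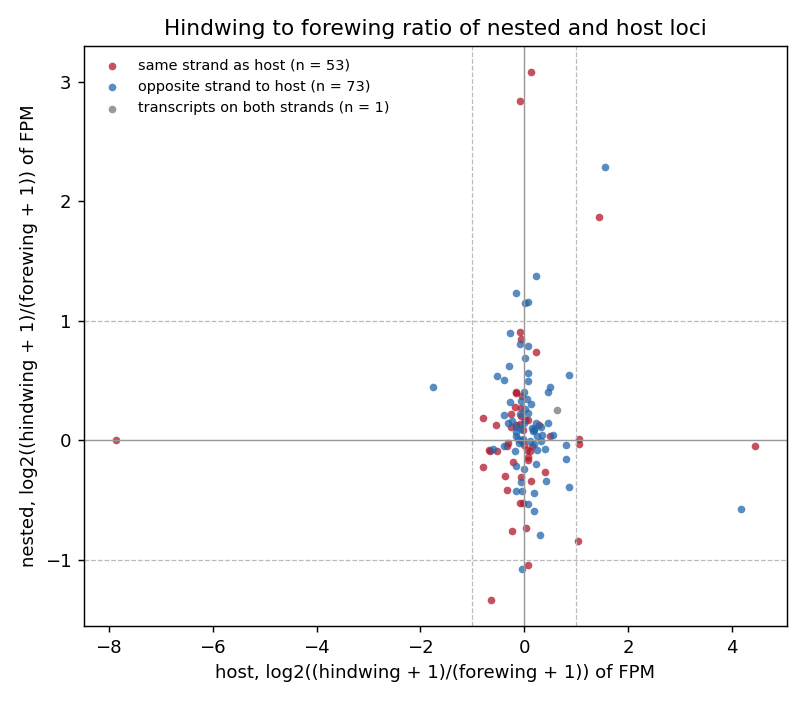
Log2 ratio of hindwing over forewing level (FPM, 1 added to each) of 127 nested loci on the vertical axis against that of their hosts on the horizontal axis. Colours give the strand relative to the host, solid lines mark equal levels and dashed lines a 2-fold difference. Both lie beyond 2-fold in the same direction at 2 points, in the upper right, and the other 2-fold differences belong to the nested locus or the host alone.

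At several loci the host was assembled in a single wing while the nested locus was present in both. These were picked after their values were seen. A 3-exon locus on nscaf2789 from 408656 to 411003 had 44.8 FPM (42.1 to 47.4) in the hindwing and 44.8 FPM (41.9 to 47.6) in the forewing. Its 2-exon host, from 400109 to 458359 on the same strand, had no hindwing transcript and 231 FPM in the forewing. On nscaf2655, a locus from 1478272 to 1481166 had 22.2 FPM in the hindwing and 23.0 FPM in the forewing, in a host with 20.6 FPM in the hindwing and no forewing transcript. On nscaf2623, a locus from 1837871 to 1840669 had 33.7 FPM in the hindwing and 50.6 FPM in the forewing. It was spliced, with 2 exons, in the forewing assembly only, and its hindwing transcript had a single exon. The spliced nested form and the host were thus not assembled in the same library. Its host had 17.1 FPM in the hindwing and no forewing transcript, and nested exons shared bases with the host. Neither the joining of these hosts in the other assembly nor its part in their ratios was tested. Conversely, 23 nested loci had no forewing transcript, at 0.287 to 7.46 FPM in the hindwing with a median of 0.633, and 6 had no hindwing transcript, at 0.390 to 1.12 FPM in the forewing with a median of 0.749. All 6 of the latter and 11 of the 23 had 2 exons. The 127 nested loci with a transcript in both libraries had a median of 457 fragments in the library where they had more, against 27.6 and 27.8 for the loci found in the hindwing or the forewing alone.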

How the data were processed

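Paired reads of 1 hindwing bud and 1 forewing bud library (80 buds pooled each) were quality trimmed, mapped with TopHat and assembled with Cufflinks 2.1.1 by the authors, each library alone. No source used here gives the genome build. The deposited transcript annotations give for each transcript an FPKM with lower and upper 95% bounds, normalised within the library. The deposited score column, which ranks the forms within a gene, was not used. No table of the authors' comparison with Cuffdiff was used.

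Loci, nested loci and hosts were derived with Python 3.11.15, numpy 2.4.6 and scipy 1.17.1 as described in the report, and figures were drawn with matplotlib 3.10.9. A transcript's FPM was the middle of its bounds times its exon length in kb, summed over the locus, and the bounds were summed likewise. Of the deposited FPKM values, 79.4% of 223 hindwing and 81.0% of 189 forewing transcripts of nested loci lay within their own bounds, hence the use of the middle. By strand class, these hindwing and forewing shares were 67.1 and 70.3% for same-strand loci and 86.7 and 87.6% for opposite-strand loci. Depth was recovered from the steps of the bounds, of which 96.5% (hindwing) and 96.1% (forewing) came out whole within 0.05. With several containing introns the smallest was described, and lengths are weighted by fragments. The scripts were tested on simulated data.

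With 1 library per group no test was possible, and intervals cover counting and assignment within a library only. PCR copies were not marked. Named loci were the 4 with the most FPM per strand class and the 4 largest ratios per direction among loci spliced in both wings, of like length, with at least 5 FPM and intervals apart. The rule also took nested and host pairs that were both 2-fold, the intron with most nested loci, the extremes of exons, span and host intron, and any locus whose host is nested. Members, lists and rules were chosen with earlier results of these data known. Alternatives were other definitions of a locus or host, other level filters, pseudocounts of 0.1 and 5, the deposited FPKM and centring. No sequence was analysed, as no genome of the files' coordinates was used here.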

Additional observations from a re-analysis of the deposited data

How the results depend on the processing

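No paired analysis was possible because the hindwing and the forewing have 1 library each. The number of nested loci lay between 113 and 167 under every definition tried, all within 1.5 times of 156, and the same-strand share between 40.7 and 47.9%. With the hindwing or forewing assembly alone there were 142 and 124. The count of 11 nested loci with a 2-fold difference (8 higher in the hindwing, 3 in the forewing) moved with the processing. It was 30 (24 and 6) with the deposited FPKM, 28 (17 and 11) with unstranded transcripts left out, 19 with a pseudocount of 0.1 and 3 with one of 5. It fell to 3 of 83 loci with at least 5 FPM in a library, 2 of 115 with at least 1 FPM in both, 3 of 72 that were spliced in both wings and of like length, and 5 of 122 with a transcript in both, a setting chosen after seeing the data. These filters leave fewer loci, while the cause of the other shifts was not tested. The share of nested and host loci with a common direction, 48.0%, was 34.2% at like lengths and 33.3% with both intervals apart, and between 42.5 and 54.6% otherwise. With the deposited FPKM, 6 of 35 named results changed sign, among them the ratios of nscaf2931 (0.85 to -0.40) and of the minus-strand locus at 3038101 on nscaf2176 (0.13 to -0.86). Under centring or other pseudocounts none did. The 29 loci found in a single library had 12.5 to 325 fragments there, and their absence from the other assembly sets no limit on the level in that wing.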
